A study of Homo sapiens with 6 samples.

Results

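Nucleolar ribosome biogenesis genes are described here after knockdown of PRKCN in MM.1S, a line of malignant plasma cells from a patient with multiple myeloma. PRKCN encodes a kinase of the protein kinase D family, and the comparison asks which transcripts change when it is depleted. The set was a given list of 57 gene symbols for ribosomal DNA transcription, ribosomal RNA processing and subunit assembly, among 21850 genes in the count table. All 57 symbols were listed in the table and all 57 passed the filter on low counts, so none was absent. RNA was sequenced on day 3 (72 h) after lentiviral infection. The shNT group (3 libraries, genotype WT) carried a scramble hairpin and the shPRKCN group (3 libraries, genotype PRKCN knockdown) a PRKCN hairpin, so both groups were infected. The sources used here do not say which PRKCN hairpin was used or whether the 3 libraries of a group were separate cultures, and p-values then measure only the spread between these libraries, which may be technical. The study's methods describe flow sorting of transduced cells by a GFP or NGFR marker for functional assays in general and do not say whether the sequenced cells were sorted.

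The nucleolus is where RNA polymerase I transcribes the ribosomal RNA precursor and where that RNA is modified, folded and cut. Small nucleolar RNPs of the box C/D and box H/ACA classes place ribose methyl groups and pseudouridines on it. The small subunit processome then assembles on the precursor and releases the small subunit particle, while a separate chain of factors builds the large subunit. Genes for these factors are known targets of MYC and are highly active in growing cells, and plasma cell tumors carry prominent nucleoli.

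The targeted gene, listed under its current symbol PRKD3, was measured first. Its level was 1262 ± 41.7 CPM (SD, n = 3) in shNT and 517 ± 23.4 CPM in shPRKCN libraries, a log2 fold change of −1.29 (edgeR adjusted p = 8.2e-43). CPM are read counts divided by the TMM-scaled library size and brought to a common total. Library totals ran from 35625564 to 37730003 counts and the 100 most abundant genes took 28.1% to 29.0% of them. Of 8 plasma cell markers, 5 fell: XBP1 (log2 fold change −1.28), IRF4 (−1.85), TNFRSF17 (−1.13), SLAMF7 (−0.97) and PRDM1 (−0.54). SDC1 rose (0.18), CD38 was at −0.01 (adjusted p = 0.875) and CD27 had 1 to 15 counts a library. The summed CPM of the 8 markers were 3303 to 3344 in shNT and 2095 to 2130 in shPRKCN libraries. The sum of 3 T cell markers, 10.6 to 11.9 and 27.9 to 31.1 CPM, was nearly all CD3E (log2 fold change 1.41), while CD3D had 0 or 1 count in each library and CD2 was at −0.39 (adjusted p = 0.497). Endothelial markers summed to 19.6 to 23.2 and 9.01 to 9.16 CPM, nearly all PECAM1 (−1.24), with VWF at 0 to 4 counts, and the erythroid marker listed, HBB, was at 2.16 to 3.84 and 0.934 to 1.1 CPM. Myeloid, stromal and epithelial sums were at most 1.46 CPM, with 2 of 4 myeloid, 1 of 4 stromal and 1 of 2 erythroid markers not listed. The part of these marker shifts in the values below was not tested. All libraries came from the MM.1S line and not from a tissue of several cell types. In bulk RNA, a change in every cell and a change in some of the cells cannot be told apart.

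Most of the nucleolar genes were slightly higher after PRKCN knockdown, and few were lower. At an adjusted p under 0.05 (edgeR quasi-likelihood test, adjusted over 13971 genes), 34 of 57 rose, 5 fell and 18 did not pass. At an unadjusted p under 0.05, and with DESeq2 at an adjusted p under 0.05, 34 rose and 5 fell as well, so the steps with 0 falls below had 0 by these rules too. Over all genes tested, 26.5% were called higher and 27.8% lower. The median log2 fold change was 0.19 over the 57 genes and 0.0012 over all genes. The changes were small: with the further limit of a log2 fold change beyond 0.58, 1 gene rose (UTP20) and 0 fell, against 6.15% and 10.6% of all genes. Of the 57, 17 moved by under 0.1 on the log2 scale in either direction. In 34 genes every shPRKCN library lay above every shNT library, and in 6 every one lay below, where 29% and 29.8% of all genes did so.

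**Figure D1:**
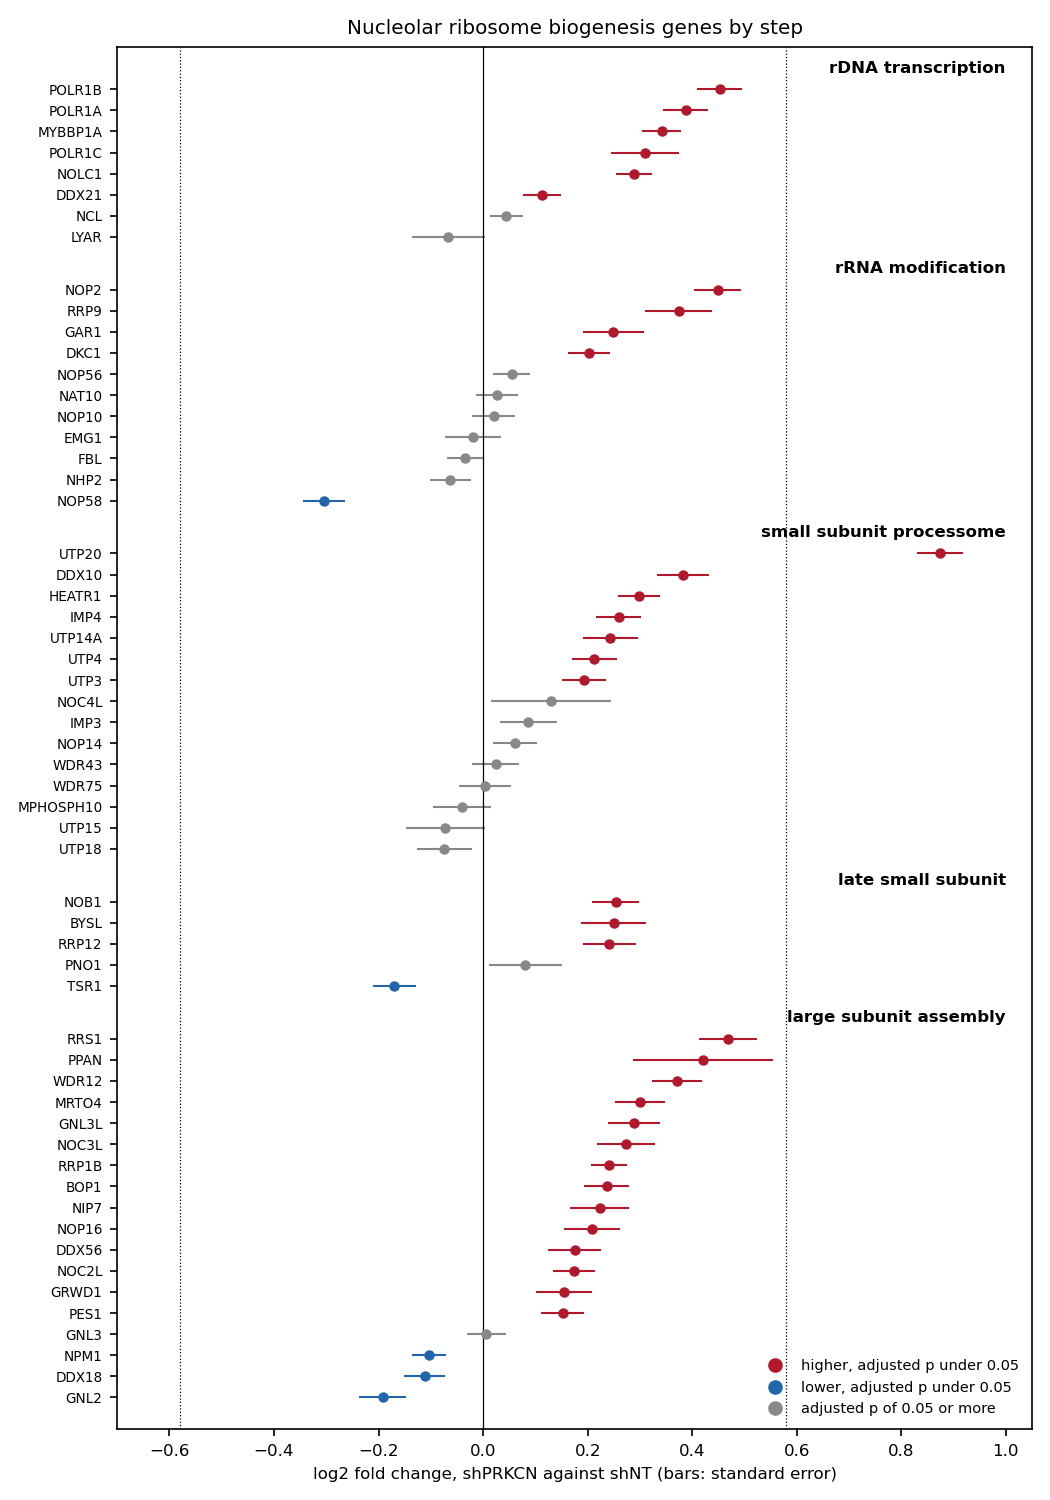
The log2 fold change of each of the 57 genes (x axis, shPRKCN against shNT, bars showing the standard error) is drawn in 5 steps, coloured by the edgeR call at an adjusted p under 0.05. UTP20 at 0.87 lies alone beyond the dotted line at 0.58, and NOP58 at −0.30 is the lowest value.

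The share of reads given to these genes was higher in every shPRKCN library than in any shNT library. Together they took 0.664%, 0.659% and 0.661% of counts in shNT and 0.715%, 0.711% and 0.723% in shPRKCN libraries. Their summed level was 6657 ± 37 CPM in shNT and 7120 ± 44.3 CPM in shPRKCN, a difference of 6.96%. By step, the summed CPM differed by 16.1% for the small subunit processome, 11.5% for ribosomal DNA transcription, 5.98% for late small subunit factors, 2.85% for large subunit assembly and 2.55% for ribosomal RNA modification. The sums are weighted by abundant genes, and NPM1, the most abundant, was lower in shPRKCN cells. A single gene, UTP20, made up much of the processome difference. It went from 59.1 to 108 CPM on average, while the whole step went from 882 to 1024 CPM. Of the 15 processome genes, 8 did not pass the test.

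In ribosomal DNA transcription 6 of 8 genes rose, 0 fell and the median log2 fold change was 0.30. The 3 polymerase I subunits on the list all rose. POLR1B, the second-largest subunit, was at 70.9, 74.4 and 72.4 CPM in shNT and at 97.1, 102 and 98.9 CPM in shPRKCN libraries, a log2 fold change of 0.45 (SE 0.043, adjusted p = 1.27e-14). All shPRKCN libraries were well above all shNT libraries. POLR1A, the largest, catalytic subunit, went from 95.5 ± 5.73 to 125 ± 4.55 CPM (log2 fold change 0.39, adjusted p = 2.43e-12). POLR1C, shared by RNA polymerases I and III, went from 24.4 ± 1.49 to 30.3 ± 2.46 CPM (0.31, adjusted p = 3.78e-05). In all, 19 of the 57 genes overlap another listed gene, and 88.4% of the span of POLR1C is shared with XPO5 on the other strand. The strand setting of the counting is not given in the sources used here, so reads of both genes may have been mixed, and XPO5 itself had a log2 fold change of −0.02 (adjusted p = 0.732).

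The other genes of this step encode nucleolar proteins that are not polymerase subunits. MYBBP1A, a nucleolar Myb-binding protein, rose by 0.34 on the log2 scale and its shPRKCN libraries spanned only 155 to 156 CPM against 119 to 126 CPM in shNT. NOLC1, a chaperone of small nucleolar RNPs, rose from 277 ± 8.71 to 338 ± 3.97 CPM (0.29, adjusted p = 4.5e-11). The helicase DDX21 rose less, by 0.11, and without shNT library 3 its adjusted p was 0.0506. Nucleolin (NCL), an abundant nucleolar RNA-binding protein, had a log2 fold change of 0.04 and an adjusted p of 0.24, although its 3 shPRKCN libraries, from 948 to 986 CPM, lay above its shNT libraries, from 926 to 940 CPM. LYAR, a nucleolar zinc finger protein, was at −0.07 with overlapping groups.

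**Figure D2:**
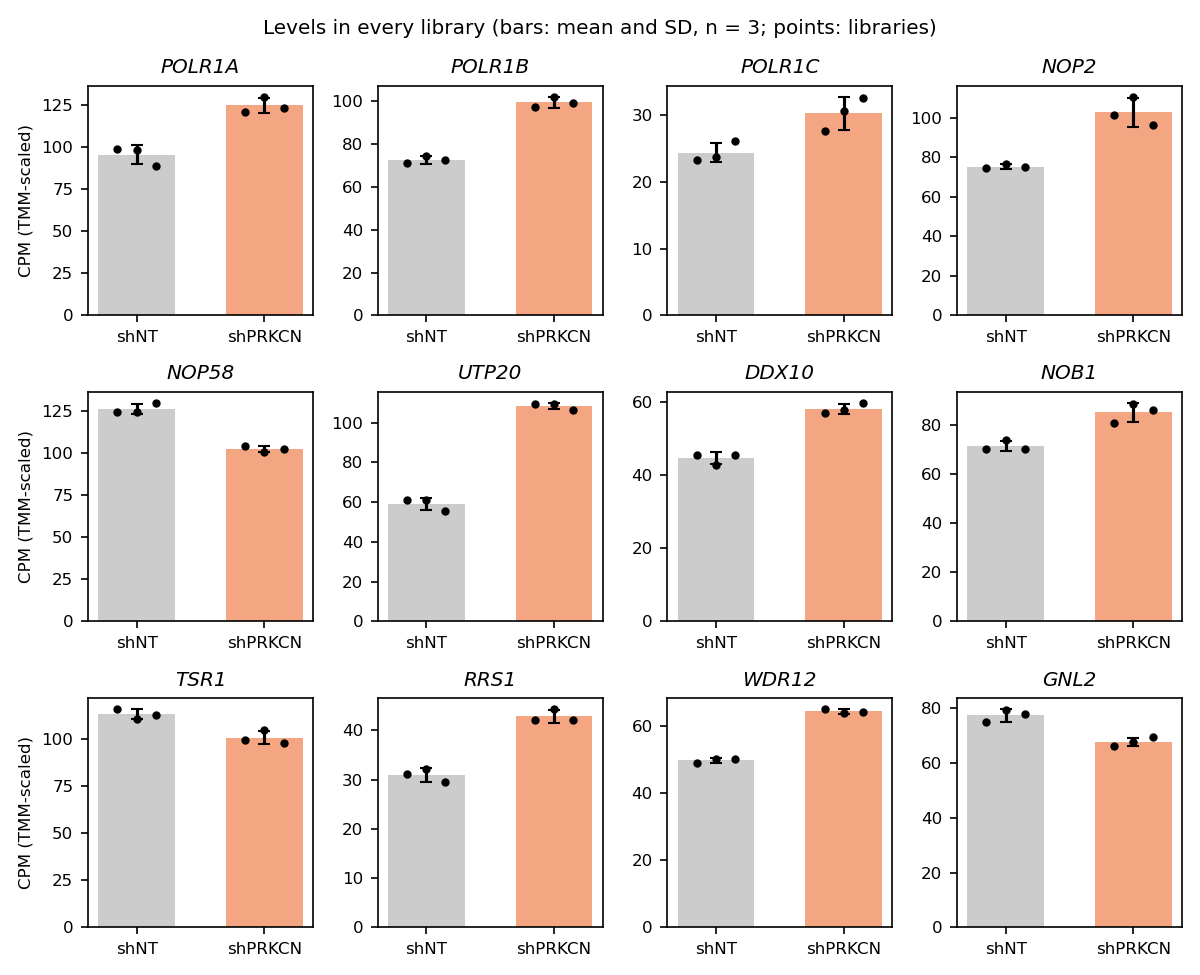
TMM-scaled CPM (y axis, from 0) of 12 genes are shown for each shNT and shPRKCN library as points, with bars for the mean and SD (n = 3). In all 12 the groups do not overlap, with NOP58, TSR1 and GNL2 lower and the other 9 higher in shPRKCN libraries. All 12 were picked from genes called at an adjusted p under 0.05, so this lack of overlap is no finding. Over all genes tested, every shPRKCN library lay above the shNT libraries in 29% and below them in 29.8%.

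In ribosomal RNA modification 4 of 11 genes were higher, 1 was lower and 6 did not pass. The median log2 fold change of 0.03 turned to −0.000821 without shPRKCN library 2 and was 0.0576 without shPRKCN library 1. NOP2, a cytosine methyltransferase of the large subunit RNA, was at 74.4, 76.5 and 74.9 CPM in shNT and 101, 111 and 96.3 CPM in shPRKCN libraries (log2 fold change 0.45, SE 0.044, adjusted p = 7.73e-14). Its lowest shPRKCN library was above its highest shNT library by a wide margin. NOP58, a core protein of box C/D RNPs, moved the other way, from 125, 125 and 130 CPM to 104, 101 and 102 CPM (log2 fold change −0.30, SE 0.040, adjusted p = 8.34e-10). The groups of NOP58 did not overlap, and no other gene of the 57 fell as far.

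Transcripts for proteins of the same RNP did not all share a call, and the differences between them were not tested. Of the box C/D core, NOP58 fell while its paralog NOP56 was at 0.05 (adjusted p = 0.19) and fibrillarin (FBL), the ribose methyltransferase, was at −0.03 (adjusted p = 0.441). RRP9, a protein of the U3 particle, rose by 0.37, from 23.4 ± 0.562 to 30.4 ± 1.74 CPM. Of the box H/ACA core, dyskerin (DKC1), the pseudouridine synthase, rose by 0.20 and GAR1 by 0.25. The partners NHP2 (−0.06) and NOP10 (0.02) did not pass the test. The acetyltransferase NAT10 (0.03) and the methyltransferase EMG1 (−0.02) did not pass either. The gene of EMG1 shares 80.1% of its span with LPCAT3 on the other strand, which rose by 0.22 (adjusted p = 0.000688).

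The unequal changes within an RNP can be read as ratios of FPKM, which scale counts by gene length and library total, within each library. The ratio of NOP58 to NOP56 was 0.431, 0.441 and 0.429 in shNT and 0.355, 0.321 and 0.338 in shPRKCN libraries. That of NOP58 to FBL was 0.257 ± 0.0101 in shNT and 0.213 ± 0.0109 in shPRKCN libraries. In both ratios the groups did not overlap. The ratio of DKC1 to NHP2 went the other way, from 0.242 ± 0.00248 to 0.290 ± 0.00288, and that of GAR1 to NHP2 from 0.167 ± 0.009 to 0.207 ± 0.0063. These pairs were chosen after the values were seen, so their ratios are a description without a test.

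**Figure D3:**
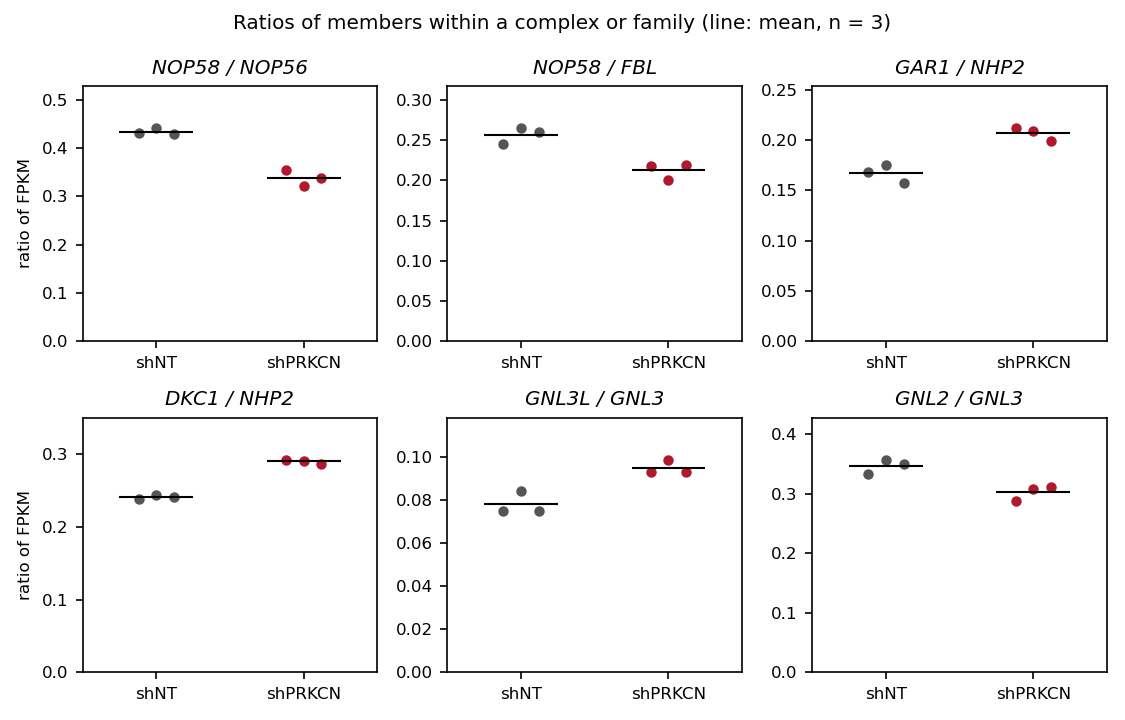
FPKM ratios (y axis, from 0) of pairs of genes in a complex or family are shown for each library, with a line at the mean of 3 libraries. The ratio of NOP58 to NOP56 is 0.434 on average in shNT and 0.338 in shPRKCN libraries, and the groups do not overlap in any of the 6 pairs.

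The small subunit processome had 7 of 15 genes higher, 0 lower and a median log2 fold change of 0.13, which was 0.07 without shPRKCN library 2. UTP20, a very large scaffold protein of the processome, changed most of all 57 genes. Its gene (GRCh38.p14, chr12:101280105-101386618, plus strand) was at 60.8, 60.9 and 55.6 CPM in shNT and at 109, 109 and 106 CPM in shPRKCN libraries. Every shPRKCN library of UTP20 was far above every shNT library. The fold change was 1.83 (log2 0.87, SE 0.044, adjusted p = 2.55e-27), and the next gene, RRS1, was at 0.47. The helicase DDX10 rose from 44.7 ± 1.59 to 58.3 ± 1.41 CPM (0.38), UTP14A by 0.24 and UTP3 by 0.19.

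Calls of transcripts within complexes of the processome were again divided, also without a test between genes. Of 5 genes of UTP-A, the first complex to join the precursor, HEATR1 (0.30) and UTP4 (0.21) rose. WDR43 (0.02), WDR75 (0.003) and UTP15 (−0.07) did not pass, and UTP15 was weakly expressed at 17.6 to 19.4 CPM in shNT libraries. Of the MPP10 complex, IMP4 rose by 0.26, while IMP3 (0.09) and MPHOSPH10 (−0.04) did not pass. NOP14 (0.06) and its partner NOC4L (0.13) did not pass either. For NOC4L, at 6.91 to 7.56 CPM in shNT libraries, the standard error was 0.115, against 0.0431 for IMP4. UTP18, of the UTP-B complex, was at −0.07.

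Among late small subunit factors 3 of 5 rose and 1 fell, with a median log2 fold change of 0.24. NOB1, the endonuclease that makes the final cut of the small subunit RNA, was at 70.1, 73.8 and 70.1 CPM in shNT and 80.8, 88.3 and 86.1 CPM in shPRKCN libraries (log2 fold change 0.25, SE 0.045, adjusted p = 1.68e-06). BYSL, which acts before export, rose by 0.25 and RRP12, an export factor, by 0.24. TSR1, a late assembly factor related to GTPases, fell. It was at 116, 111 and 113 CPM in shNT and 99.7, 105 and 98.0 CPM in shPRKCN libraries (log2 fold change −0.17, SE 0.041, adjusted p = 0.000293). Neither NOB1 nor TSR1 had overlapping groups. PNO1, the partner of NOB1, was at 0.08 with overlapping groups, and without shPRKCN library 2, its lowest, it was at 0.17 (adjusted p = 0.048) and without library 3, its highest, at −0.0046. BYSL shares 51% of its span with MED20 on the other strand, which was higher by 0.25 (adjusted p = 0.00102).

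Large subunit assembly had the most calls, with 14 of 18 genes higher, 3 lower and a median log2 fold change of 0.22. RRS1, which helps to place the small ribosomal RNA of the large subunit, was at 31.2, 32.2 and 29.5 CPM in shNT and 42.1, 44.4 and 42.1 CPM in shPRKCN libraries (log2 fold change 0.47, SE 0.056, adjusted p = 4.74e-11). The groups of RRS1 stood apart. The PeBoW complex is needed to process the large subunit RNA. Transcripts of all 3 of its proteins rose: WDR12 by 0.37, BOP1 by 0.24 and PES1 by 0.15. MRTO4, which holds the place of a stalk protein, rose by 0.30. NOC3L (0.27), NOC2L (0.17), RRP1B (0.24), NIP7 (0.22), NOP16 (0.21) and the helicase DDX56 (0.18) rose too. For NIP7 the groups overlapped by a small margin, with 43.5 CPM in shPRKCN library 1 and 43.9 CPM in shNT library 3.

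The calls of PPAN and GRWD1 depended on a single library. PPAN, a large subunit processing factor, had the lowest level of the 57 genes, 4.84 ± 0.0941 CPM in shNT and 6.48 ± 0.852 CPM in shPRKCN (0.42, SE 0.134, adjusted p = 0.00589), and without shPRKCN library 1 its adjusted p was 0.0676. GRWD1, a chaperone of a ribosomal protein, rose by 0.16, and without shPRKCN library 2 its adjusted p was 0.0617.

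The 3 genes of this step that fell were GNL2, DDX18 and NPM1. GNL2, a GTPase of nuclear large subunit particles, was at 74.7, 79.3 and 77.8 CPM in shNT and 66.2, 67.4 and 69.2 CPM in shPRKCN libraries (log2 fold change −0.19, SE 0.045, adjusted p = 0.000208). Its highest shPRKCN library was below its lowest shNT library. The related GTPase GNL3L rose by 0.29, and GNL3 (nucleostemin) was at 0.01 (adjusted p = 0.902). The FPKM ratio of GNL2 to GNL3 was 0.346 ± 0.0126 in shNT and 0.302 ± 0.0132 in shPRKCN libraries. Nucleophosmin (NPM1), an abundant nucleolar chaperone, fell from 1094 ± 20.3 to 1018 ± 14.7 CPM (−0.10, adjusted p = 0.00432). The helicase DDX18 fell from 139 ± 3.3 to 128 ± 3.81 CPM (−0.11, adjusted p = 0.0116). The call of DDX18 was lost without shNT library 1 (adjusted p = 0.0818) or shPRKCN library 2 (0.0615). NPM1 has processed pseudogenes, and how reads shared with them were counted is not given in the sources used here.

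Levels per length differed widely among the 57 genes, from 1.90 FPKM (PPAN) to 501 FPKM (NPM1) in shNT, with a median of 25.4. FBL (246 FPKM), NCL, NOP10, NHP2 and NOP56 followed NPM1, and none of these 5 passed the test. By level, 29 of 44 genes under 40 FPKM rose and 3 fell, while of 13 genes at 40 FPKM or more 5 rose and 2 fell. NOLC1, at 72.8 FPKM, was the most abundant gene that rose. Across the 57 genes the log2 fold change and the log2 mean FPKM of shNT had a Pearson r of −0.407 (Spearman rho −0.387). This is a description across genes, which share the same 6 libraries and are not independent replicates, and the shNT values enter both axes. Neither the counts by level nor the correlation has a comparison over all genes here.

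**Figure D4:**
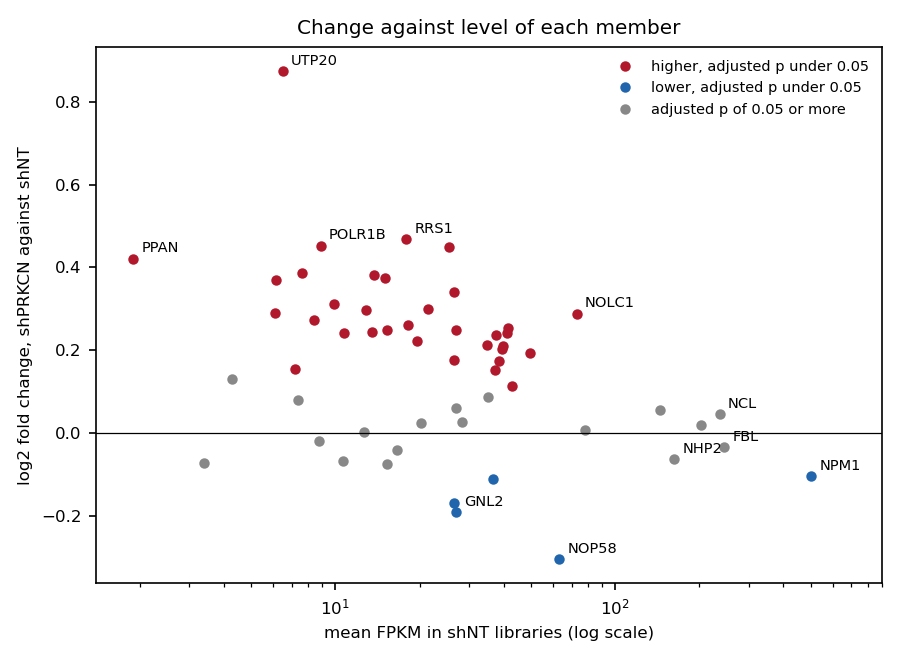
Each of the 57 genes is placed by its mean FPKM in shNT libraries (x axis, log scale) and its log2 fold change (y axis), coloured by the edgeR call. The most abundant gene that rose is NOLC1 at 72.8 FPKM, and NPM1 at 501 FPKM lies below 0.

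The rest of the pathway was taken from a list of 135 further ribosome biogenesis genes, all tested. Of these, 47 rose, 21 fell and 67 did not pass, with a median log2 fold change of 0.05. The shares of all genes tested, 26.5% higher and 27.8% lower, stand beside these counts and those by step. By step, 15 of 31 further processome genes rose and 3 fell, 14 of 44 large subunit genes rose and 7 fell, and 4 of 22 exosome and nuclease genes rose and 5 fell. In ribosomal DNA transcription 5 of 16 further genes rose and 3 fell, in ribosomal RNA modification 6 of 17 rose and 3 fell, and of late small subunit factors 3 of 5 rose and 0 fell. The largest rises were BAZ2A (0.84), a subunit of the complex that silences ribosomal DNA, the polymerase I subunit POLR1G (0.50) and the methyltransferase DIMT1 (0.46). BAZ2A was at 207, 204 and 203 CPM in shNT and 355, 379 and 363 CPM in shPRKCN libraries. The largest falls were the helicase DDX24 (−0.60), the exosome subunit EXOSC8 (−0.45) and PIH1D1 (−0.44), which takes part in box C/D RNP assembly. DDX24 went from 147 ± 2.79 to 97.3 ± 0.823 CPM, without overlap. Whether the 57 genes differ from these 135 was not tested.

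**Figure D5:**
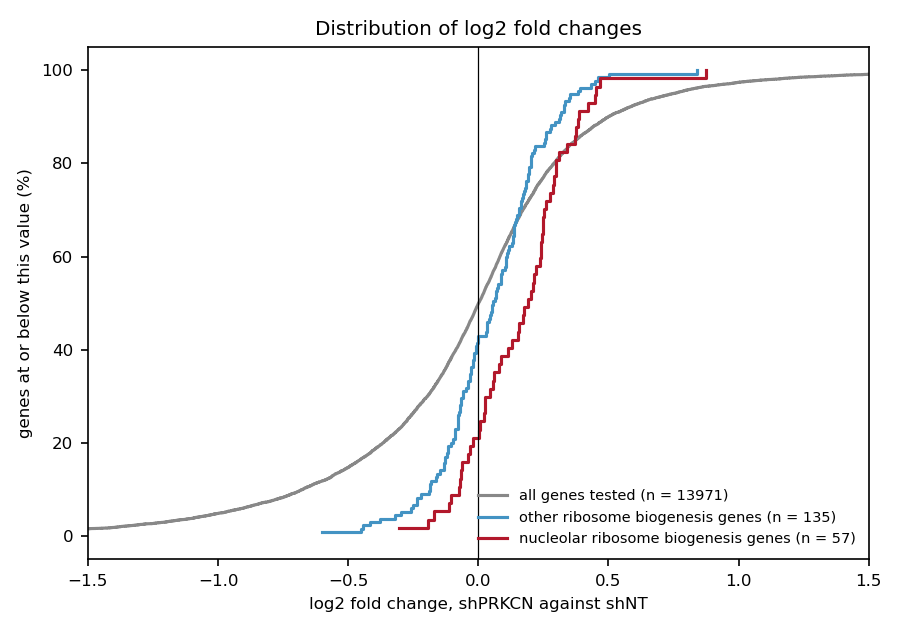
The share of genes (y axis, %) at or below each log2 fold change (x axis) is shown for the 57 nucleolar genes, the 135 other ribosome biogenesis genes and all 13971 genes tested. The medians are 0.19, 0.05 and 0.0012, and the curve of the 57 genes spans only −0.30 to 0.87.

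The messenger RNA of MYC was at 547 ± 7.77 CPM in shNT and 594 ± 11.1 CPM in shPRKCN libraries (log2 fold change 0.12, adjusted p = 0.00136). MYC protein was not measured in these data, so its level is not known from them. By immunoblot, the study reports less c-MYC protein after PRKCN knockdown in MM.1S cells and places that change after transcription. The part of MYC in the values above was not tested. Ribosomal and small nucleolar RNAs could not be compared: 26 such genes were looked for and 0 were listed in the table, so the values above concern the messenger RNAs of nucleolar factors and not the ribosomal RNA itself.

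Promoter windows of 300 bases from RefSeq (GRCh38.p14) were found for 49 of the 57 genes. The missing 8 were NOLC1, NOP58, MPHOSPH10, DDX18, BOP1, RRS1, RRP1B and RRP12. The E-box CACGTG, the site bound by MYC and related factors and the same on both strands, was in 23 of 49 (46.9%), beside 8.77% of all 27305 genes with a window and 12.4% of the 11035 of these that were tested. A gene was counted when any of its windows held the letters. It was held by 13 of 29 genes that rose, 1 of 3 that fell and 9 of 17 that did not pass. Of 26 matches, 21 began from 50 bases before to 50 bases after the start, and the windows end 50 bases after it. Positions of matches in other genes were not counted, so this share has no comparison. To show the site in its setting, 30 bases around the start (20 before and 10 after it) are printed for UTP20, RRP9 and UTP4, which rose, NAT10 and NOP10, which did not pass, and GNL2, which fell. They were chosen from genes whose match falls inside these 30 bases, so its closeness to the start is no finding. UTP18 and WDR43, which did not pass, also have the match inside these bases and are not printed. Genes with a match further away, such as UTP14A at −241 and LYAR at −64 from the start, are not printed either. The capitals mark CACGTG.
UTP20 (chr12:101280085-101280114, plus strand): tttttccgtcCACGTGacccactcaggctc
RRP9 (chr3:51941895-51941924, minus strand): ggagggttcagctgcCACGTGagttctgcg
UTP4 (chr16:69132629-69132658, plus strand): cgcgCACGTGgggccggggcggagagaggc
NAT10 (chr11:34105609-34105638, plus strand): ttgcgCACGTGctgtctaccagttcctgag
NOP10 (chr15:34343127-34343156, minus strand): attgacgaaCACGTGacgcggtcgggcgga
GNL2 (chr1:37595928-37595957, minus strand): gcggaagtgacgtacgtcgtgcaCACGTGg

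Other motifs were searched on both strands. The ETS core CCGGAAG was in 40.8% of the 49 genes and 22.1% of tested genes, and in 15 of 29 that rose, 1 of 3 that fell and 4 of 17 that did not pass. The NRF1-like GCGCATGC was in 10.2% and 6.48%, the GC box GGGCGG in 73.5% and 74.3%, and TATAAA in 2.04% and 8.65%. These are letter matches in a fixed window, and binding was not measured here.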

How the data were processed

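The authors deposited raw read counts per gene and FPKM values of the same genes for 6 libraries of total RNA. Per the labels, the submitters' processing notes name FastQC, HISAT2, StringTie and GRCh38.p14, and versions, the counting program, annotation and strand setting are not given in the sources used here. The deposited FPKM follow from the counts and a gene length (relative spread over libraries at most 8.9e-10), so both tables hold a single measurement. Groups came from the treatment labels. Counts were TMM-scaled, filtered with filterByExpr (13971 genes) and tested with the edgeR 4.0.16 quasi-likelihood test (R 4.3.3), with Benjamini-Hochberg adjustment over all genes tested. The fold limit of 0.58 is that of the study's methods. Total counts of 35625564 to 37730003 per library set the precision.

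The 57 genes were given, and they, the steps, the 135 further genes and the markers were chosen with earlier results of these data known, so no list was tested. All 57 genes may be named, with the value in every library for genes past both limits and for the largest rise and fall at an adjusted p under 0.05 in each step. The figure of levels by library also draws POLR1A, POLR1C, DDX10 and WDR12, which are outside this rule. Of the further genes the 3 largest changes in each direction are named, and PRKD3. MYC, genes that overlap a member and the FPKM pairs were named after their values were seen. As alternatives, the scaling was set to library size, upper quartile or RLE, the filter was changed, a replicate block was added, each library was left out, DESeq2 1.42.0 replaced edgeR, and log2 FPKM with a pseudocount of 1 or 0.1 was tested with limma 3.58.1. The edgeR and DESeq2 fits were tested on simulated counts. In these, few genes changed, as many up as down, and by more than nearly all of the 57 genes did. The simulation therefore does not cover changes as small as most of those above, or scaling when many genes change. Promoters and positions are from RefSeq tables, read with Python.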

Additional observations from a re-analysis of the deposited data

How the results depend on the processing

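Under 16 alternatives, 30 of the 34 higher and 3 of the 5 lower calls held in every one, and under the 13 that use counts 31 and 4 did. DESeq2, RLE and upper-quartile scaling, the other count filters and the fit with the replicate block (34 higher, 5 lower, 1 past the fold limit) changed no call of the 57 genes. The number of genes higher ran from 33 to 34 with each library left out, and the number lower from 4 to 5. With limma on log2(FPKM + 1) or log2(FPKM + 0.1), 3 genes were lower in place of 5, since NPM1 and DDX18 missed the threshold, and NIP7 missed it among the higher genes. The median over the 57 genes ran from 0.16 to 0.21 with each library left out. That of the modification step ran from −0.000821 to 0.0576 and that of the processome was 0.07 without shPRKCN library 2. The sign of some genes near 0 turned when particular single libraries were left out, and stayed with the others. Over all these fits NAT10 ran from −0.0037 to 0.0576, NOP10 from −0.000821 to 0.0411 and EMG1 from −0.0654 to 0.0172. WDR75 ran from −0.0447 to 0.0386, PNO1 from −0.00456 to 0.167 and GNL3 from −0.0144 to 0.0236. EMG1 was also at 0.000127 with library-size scaling, at 0.000414 with limma on log2(FPKM + 1), with or without a minimum of 1 FPKM, and at 0.000539 on log2(FPKM + 0.1). The cause of these changes was not tested. No scaling moved the median of all genes by more than 0.022.

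The replicate numbers of the labels showed no sign of pairing: same-numbered libraries had correlations of −0.0419, −0.0133 and 0.00381 of their deviations from the group means. These values cannot tell whether same-numbered libraries were handled together. Depth limits NOC4L and PPAN, under 9 CPM, most. With 3 libraries a group an exact permutation test cannot go below p = 0.1, so tests rest on the spread shared across genes.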
